A study of Mus musculus with 8 samples.

Results

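DMRT6 peaks at the promoters of genes expressed in the testis at postnatal day 8 (P8) numbered 2190 of the 14862 peaks the authors called, or 14.7%. DMRT6 is the protein made by Dmrtb1. The peaks were chosen by the position of the peak middle, by gene orientation and by the wild-type expression level. The middle had to lie within 1 kb of where a gene begins on its own strand, taken from the coordinates in the deposited expression table and called its 5' end here. Peaks that also lay within 1 kb of a minus-strand and a plus-strand 5' end arranged head to head were dropped, and the gene had to average at least 0 on the log2 CPM scale (the log2 of read counts scaled to library size) in the 3 wild-type P8 libraries. Of the 2724 peaks within 1 kb of a 5' end, 358 were at such divergent pairs and 176 were at single promoters of genes below that level. The 2190 that were left belonged to 2000 genes, among 16614 genes that reached the level.

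The binding data came from 1 chromatin immunoprecipitation (ChIP) library made with rabbit polyclonal antibodies to DMRT6 and 1 input library, both from wild-type adult testis on a C57BL/6, Mixed background. The expression data came from whole testes of C57BL/6 animals at P8, with 3 libraries labelled Dmrt6 Null and 3 labelled wild type. The labels do not describe the null allele, and binding and expression were measured at different ages. With 1 ChIP library there was no replicate check on any peak, and how deeply the ChIP and input were sequenced is not known here.

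DMRT proteins carry a DM domain, a zinc-binding fold that contacts DNA, and family members bind related sites built around the core ACATTGT. In the mouse male germ line DMRT6 appears in differentiating spermatogonia, the mitotic cells that precede meiosis, and its relative DMRT1 holds spermatogonia in the mitotic programme. A promoter peak is read as the immunoprecipitated protein near the start of a gene, and a gene called bound below only has such a peak. The peak does not say whether transcription of that gene depends on the protein.

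The sequences that the peaks lie on could be read only in part, because no genome of the files' build, mm9, was used. RefSeq promoter sequences of build GRCm38.p6, from 250 bases before to 50 bases after the outermost start of each gene, were matched by Entrez number to 1574 of the 2000 genes (78.7%). The RefSeq start need not be the 5' end in the expression table. For 820 genes with a sequence the peak middle lay inside that window, as measured from the table's own 5' end. The core ACATTGT, whose other strand contains the SOX-type letters ACAATG, was searched on both strands. It was in 17 of these 820 promoters, 2.07% (exact 95% binomial interval 1.21 to 3.30). It was in 1.4% of 9388 promoters of expressed genes with no peak within 1 kb and in 2.98% of all 27025 promoters in the table. These and all other binomial intervals cover counting error only. Among the 100 of the 820 genes with the highest peak score the core was in 6 promoters, 6.00% (2.23 to 12.6). The shares of other motifs in these 100 are given further on, and the core was not the only one that was higher there.

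All 13 cores that lay wholly before the start follow, to show the family's core in promoters whose window also held a peak middle. Whether a core lay inside its peak was not measured, since the builds differ. Each stretch has up to 15 bases on either side and is read on the strand on which the core is ACATTGT. The core is in capitals, and coordinates are GRCm38.p6 with the strand of the gene.
Dcaf15, chr8:84105026-84105047, minus strand: tttctgtcaggcttgACATTGT
Srf, chr17:46556191-46556227, minus strand: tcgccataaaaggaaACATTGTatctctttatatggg
Srgap3, chr6:112947333-112947369, minus strand: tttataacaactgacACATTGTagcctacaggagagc
Rnf10, chr5:115273070-115273106, minus strand: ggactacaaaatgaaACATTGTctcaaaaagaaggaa
5730455O13Rik, chr19:38224340-38224376, minus strand: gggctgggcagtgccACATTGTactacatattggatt
Ankrd40, chr11:94327794-94327830, plus strand: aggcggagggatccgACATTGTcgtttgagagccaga
Atg7, chr6:114671046-114671082, plus strand: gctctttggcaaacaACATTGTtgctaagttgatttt
Elavl4, chr4:110352038-110352074, minus strand: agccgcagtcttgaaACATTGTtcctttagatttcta
Apitd1, chr4:149137800-149137836, minus strand: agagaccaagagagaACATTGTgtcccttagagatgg
Xpr1, chr1:155417612-155417648, minus strand: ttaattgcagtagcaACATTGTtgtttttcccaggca
Capn7, chr14:31336518-31336554, plus strand: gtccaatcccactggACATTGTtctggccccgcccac
Rnf7, chr9:96478834-96478870, minus strand: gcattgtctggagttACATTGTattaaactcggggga
Traf6, chr2:101678170-101678196, plus strand: tgatcccattctccaACATTGTcacgg
The core was preceded by CA and followed by TG in Atg7 and Xpr1, which makes the same 11-base string in both. This longer string was chosen after the sequences were seen. It occurred in 3 of all 27025 promoters, in 2 of the 1574 promoters of genes with a peak, and in 0 of the 9388 promoters of expressed genes with no peak within 1 kb. Atg7, which encodes an E1-like enzyme of autophagy, had its peak middle 4 bp upstream of the 5' end (chromosome 6, 114593037 to 114593253 in mm9, score 121). Xpr1, a phosphate exporter gene, had 3 peaks with middles 826, 500 and 197 bp upstream and scores of 72.9, 345 and 72.6. The core of Srf, the gene of serum response factor, lay 50 bases before the RefSeq start, and its peak middle lay 14 bp inside the gene with a score of 393.

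The promoters of Nfat5, Stat3 and Nfyb are printed because they had the highest scores, 3100, 2042 and 1532, among genes with a sequence and the peak middle in the window. Nfat5 encodes a transcription factor of the osmotic stress response, Stat3 a cytokine-activated transcription factor and Nfyb a subunit of the CCAAT-binding factor NF-Y. The 250 bases before each start follow, 5′ to 3′ on the strand of the gene, with the ETS motif CCGGAAG (read on either strand) in capitals. ACATTGT and AACTACAA, an element bound by ZNF143, were also searched and would be in capitals too.
Nfat5, chr8:107293220-107293469, plus strand: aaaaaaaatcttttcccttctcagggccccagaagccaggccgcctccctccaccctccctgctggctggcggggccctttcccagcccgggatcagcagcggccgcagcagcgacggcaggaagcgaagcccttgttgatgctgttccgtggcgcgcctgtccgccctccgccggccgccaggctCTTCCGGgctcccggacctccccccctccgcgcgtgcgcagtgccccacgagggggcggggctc
Stat3, chr11:100939541-100939790, minus strand: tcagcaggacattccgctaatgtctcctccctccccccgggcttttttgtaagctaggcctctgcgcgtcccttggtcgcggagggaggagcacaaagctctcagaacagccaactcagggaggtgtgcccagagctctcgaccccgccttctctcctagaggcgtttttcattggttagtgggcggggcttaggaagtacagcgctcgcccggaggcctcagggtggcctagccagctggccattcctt
Nfyb, chr10:82764142-82764391, minus strand: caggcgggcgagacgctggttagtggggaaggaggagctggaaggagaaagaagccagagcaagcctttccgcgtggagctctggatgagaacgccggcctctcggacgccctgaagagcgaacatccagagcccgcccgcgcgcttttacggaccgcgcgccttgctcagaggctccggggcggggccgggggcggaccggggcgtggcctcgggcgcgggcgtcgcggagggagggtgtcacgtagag
Nfat5 had 1 ETS motif and Stat3 and Nfyb had 0, and all 3 had 0 cores and 0 ZNF143 elements. The share of G and C in the 250 bases was 71.6% for Nfat5, 60.8% for Stat3 and 70.4% for Nfyb. The promoter of Dmrtb1 itself follows in the same form. It had 0 cores, in a window whose RefSeq start was the outer of 2 in the table.
Dmrtb1, chr4:107684231-107684480, minus strand: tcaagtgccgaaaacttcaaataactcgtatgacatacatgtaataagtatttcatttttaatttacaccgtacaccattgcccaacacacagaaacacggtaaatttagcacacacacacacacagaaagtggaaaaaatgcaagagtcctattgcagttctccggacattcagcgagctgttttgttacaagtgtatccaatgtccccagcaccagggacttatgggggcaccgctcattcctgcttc
The absence of a motif from a window says nothing of the sequence outside it.

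The promoters with a peak were rich in CpG, the dinucleotide that marks most housekeeping promoters. The 820 promoters had a median of 61.7% G and C and an observed over expected CpG ratio of 0.834, against 60.3% and 0.729 for expressed genes with no peak within 1 kb and 52.7% and 0.389 for all promoters. The ETS motif CCGGAAG was in 23.4% of the 820 (20.6 to 26.5), against 16.5% of expressed genes with no peak and 9.14% of all promoters. The GC box GGGCGG was in 69.3%, against 62.3% and 35.9%. The ZNF143 element, chosen after values were seen, was in 4.63% (3.30 to 6.31), against 1.86% and 1.47%. The TATA box TATAAA was in 4.39% of the 820, against 7.57% of expressed genes with no peak and 14.2% of all promoters. CCAAT was in 38.3%, 38.7% and 38.0% of these sets in the same order. TGACGTCA (the cAMP response element) was in 4.39%, 3.07% and 1.85%. GCGCATGC (bound by NRF1) was in 5.37%, 5.27% and 2.80%, and the E-box CACGTG in 10.6%, 9.92% and 7.24%. The 820 were picked for a peak middle in the window, and the comparison sets had no such condition. Over all 1574 promoters of genes with a peak, TGACGTCA was in 3.11%, the ETS motif in 19.9% and the ZNF143 element in 3.88%. The GC box was in 69.0% of the 1574, CCAAT in 39.0%, GCGCATGC in 5.53%, CACGTG in 10.9% and TATAAA in 4.96%. In the 100 of highest score CCAAT was in 54.0% (43.7 to 64.0), the ZNF143 element in 10.0% (4.9 to 17.6) and the ETS motif in 27.0%. The GC box was in 71.0% of these 100 and CACGTG in 12.0%. Lower than in the 820 were GCGCATGC with 5.0%, TATAAA with 3.0% and TGACGTCA with 2.0%. All motifs were read on both strands, TGACGTCA and CACGTG being their own reverse complements, and genes are not independent replicates.

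The peaks gathered at the start itself. The middle lay within 100 bp of the 5' end for 851 peaks (38.9%) and within 250 bp for 1371 (62.6%), with a median distance of 158 bp. It was upstream for 1234 peaks, downstream for 951 and at the 5' end for 5, so that 56.3% (54.2 to 58.4) were upstream. The 100 bp just upstream of the 5' end held 491 peaks and the 100 bp just downstream 359. Peaks at divergent pairs had a median distance of 70 bp from the nearest 5' end and peaks at P8-silent single promoters 377 bp.

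**Figure D1:**
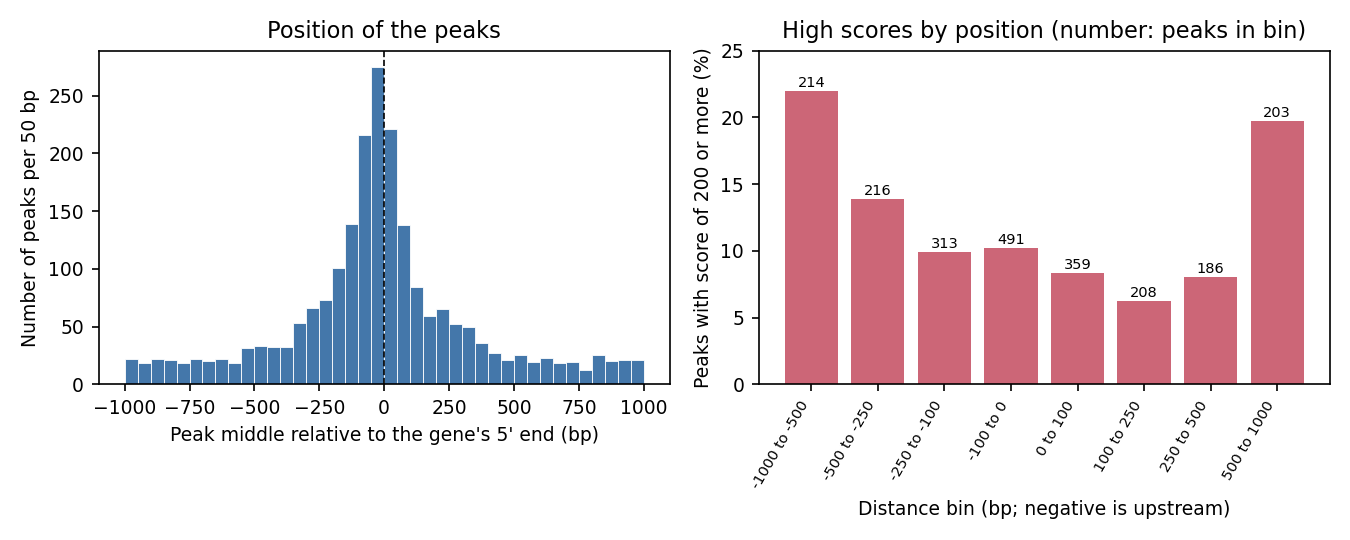
Left, number of peaks per 50 bp by the distance of the peak middle from the gene's 5' end in bp, with negative values upstream. Right, percent of peaks in each distance bin with the authors' score at 200 or more, with the number of peaks in the bin above each bar. Most of the 2190 peaks lie within 250 bp of the 5' end, while high scores were less frequent there than beyond 500 bp.

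High scores were less frequent within 250 bp of the 5' end than beyond 500 bp. The score is the authors' own value, of unstated scale, and was used only to describe and rank peaks. Among the 491 peaks less than 100 bp upstream, 10.2% had a score of 200 or more, and among those in the 100 bp downstream 8.36% did. From 100 to 250 bp the share was 9.9% upstream and 6.25% downstream, and from 250 to 500 bp it was 13.9% upstream and 8.06% downstream. It was 22% of the 214 peaks 500 to 1000 bp upstream and 19.7% of the 203 peaks 500 to 1000 bp downstream. The score of 200 was chosen after the scores were seen.

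The median score of the 2190 peaks was 85.5 (exact 95% interval of the median 83.47 to 87.43) and the highest was 3100. That interval takes the peaks of 1 library as independent and does not cover variation between ChIP libraries. The middle quartiles of the 2190 scores ran from 65.7 to 131.8. The median was 83.5 for divergent pairs, 93.7 for P8-silent single promoters and 97.0 for the 12138 peaks farther than 1 kb from a 5' end. A score of 100 or more was reached by 838 of the 2190 (38.3%), by 36.0% at divergent pairs, by 46.0% at P8-silent single promoters and by 48.0% of the far peaks. The median width was 199 bp, with a range of 66 to 752, against 210.5 bp at divergent pairs, 189 bp at P8-silent single promoters and 171 bp for the far peaks. With the peaks cut into 5 groups of 438 by score, the lowest had a median width of 157.5 bp and 49.1% of middles upstream, and the highest had 288 bp and 62.6%.

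**Figure D2:**
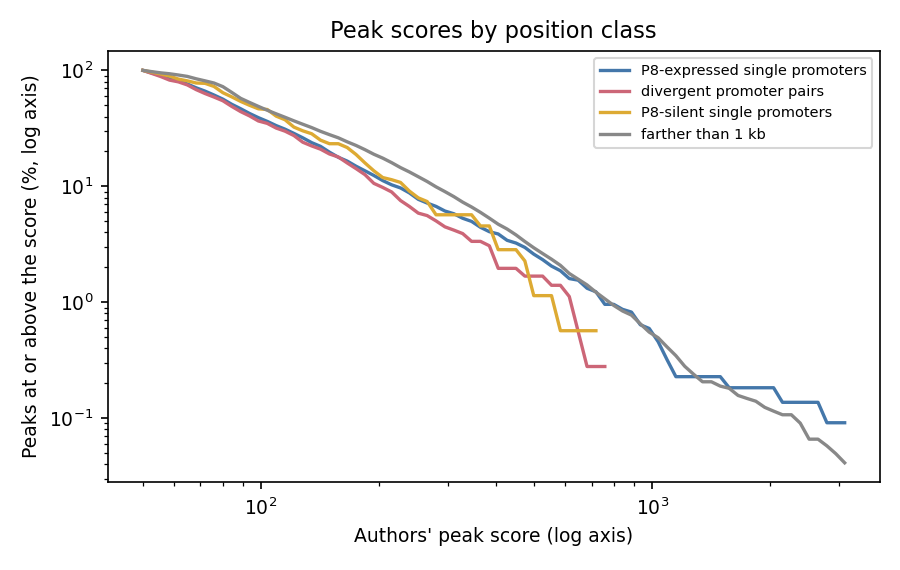
Percent of peaks at or above a given score, for peaks at P8-expressed single promoters (blue), divergent promoter pairs (red), P8-silent single promoters (yellow) and farther than 1 kb from a 5' end (grey), on log axes. A score of 100 or more was reached by 38.3% of the blue class and 48.0% of the grey one, and both reach 3100.

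The 15 peaks of highest score belonged to 15 genes, among them several of transcription factors and chromatin proteins. Myst3 (ENSMUSG00000031540), also called Kat6a, encodes a histone acetyltransferase, and its peak (chromosome 8, 23969741 to 23970148 in mm9) had a score of 3100 with the middle 63 bp upstream. Nfat5 (ENSMUSG00000003847) had a peak at 109817089 to 109817482 on chromosome 8, also at 3100 and 85 bp upstream. Only these 2 of the 2190 peaks had that score. Zfp341, a zinc finger gene, had a score of 2720.1 at 208 bp inside, Stat3 one of 2042 at 144 bp upstream, and Nfyb one of 1532 at 35 bp inside. Pknox1, a homeodomain gene, had 1111 at 152 bp inside, and Brd2, whose protein reads acetylated histones, had 1036 at 975 bp inside. Prrx2, another homeodomain gene, had 986 at 360 bp upstream.

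Outside transcription, the 15 of highest score held Def8 (1139.6, at 90 bp inside), the inner nuclear membrane gene Lbr (1078, at 608 bp inside) and Ltbp3 (1058, at 401 bp upstream), which encodes a binding protein of latent TGF-beta. They also held Atp8b2 (1021, at 150 bp inside), a lipid flippase gene, and the adherens junction gene Ctnna1 (991, at 139 bp upstream). Faf2 (943, at 718 bp inside) and the ubiquitin protease gene Usp4 (927, at 643 bp inside) complete the 15. None of the 15 genes passed the expression test between Dmrt6 null and wild type described further on. Pknox1 was the only one of them whose null libraries all lay outside the wild-type range. The genotypes did not overlap for 11.1% of all tested genes. The log2 CPM of Pknox1 was 5.35, 5.32 and 5.41 in null replicates 1, 2 and 3, against 5.07, 5.21 and 5.26 in wild-type replicates 1, 2 and 3.

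Most genes had a single peak. Of the 2000 genes, 1820 had 1 peak, 170 had 2 and 10 had 3, and neighbouring middles at 1 gene were a median of 390.5 bp apart (144 to 1519). The 10 with 3 peaks were Arid1a, Brd2, Thap4, Xpr1, Man2c1, Rmi1, Atg14, Pwwp2a, Epc2 and Mir17hg, named after their peaks were counted. Arid1a encodes a subunit of the SWI/SNF remodelling complex, Epc2 a homologue of the Enhancer of Polycomb protein, Atg14 an autophagy factor and Rmi1 a partner of the Bloom helicase. Mir17hg is the host gene of the miR-17 cluster, and its 3 peaks lay 853, 561 and 258 bp upstream with scores of 84.8, 229 and 323. The 3 peaks of Brd2 lay 373 and 6 bp upstream and 975 bp inside, with scores of 96.1, 255 and 1036. Another peak lay within 10 kb of the 5' end for 487 of the 2000 genes (24.3%). No such share is given here for other expressed genes, so this one has no comparison. For 129 of the 2190 peaks more than 1 5' end lay within 1 kb, at most 3, and the nearest was taken.

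The edges of the rule were as follows. Just inside the 1 kb limit were a peak of Ddx5 (score 87.2) and one of Tmod1 (225), both at 998 bp, and just outside it were peaks near Tia1 (121) at 1002 bp and Zcchc6 (81.7) at 1003 bp. Just above the level of 0 were Dll3, with a wild-type mean of 0.025 log2 CPM and a peak score of 336, and 6330418K02Rik, with 0.034 and 56.6. Just below it were Gm13845, with -0.005 and 117, and Gbp8, with -0.012 and 141.

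Promoter peaks were sparse on the X chromosome. Peaks of all classes were few there too. Of all 14862 peaks, 182 were on the X chromosome, where autosomes had from 421 (chromosome 18) to 1185 (chromosome 5). Why the X chromosome had few peaks was not tested. Of the 854 X-linked genes at the level of 0 or more, 16 had a peak, 1.87% (1.07 to 3.02), and of the 15747 autosomal genes 1984 did, 12.6% (12.1 to 13.1). The autosomes ranged from 10.8% (8.05 to 14.2) on chromosome 18 to 14.1% (12.3 to 16.1) on chromosome 11. The 17 X-linked peaks included those of the zinc finger gene Zxdb (633, 178 bp upstream), the synaptic vesicle gene Syp (605, 165 bp inside) and the splicing gene Rbm10 (356, 788 bp upstream). The histone demethylase gene Kdm5c had 2, with scores of 345 and 102. The Y chromosome had 0 of 13 genes (up to 24.7%).

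**Figure D3:**
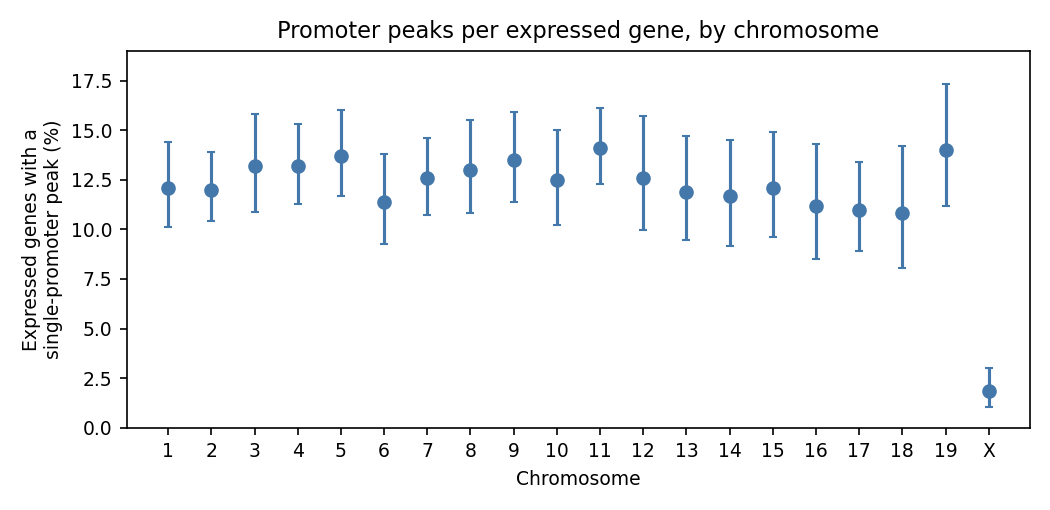
Percent of genes at a wild-type level of 0 log2 CPM or more that have a single-promoter peak, by chromosome, with exact 95% binomial intervals. The X chromosome stands at 1.87% and the autosomes between 10.8% and 14.1%.

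Gene lists were then read against the share of all 16614 genes at the level that had such a peak, 12.0%. The lists were chosen with earlier results of these data known, and their shares are descriptions with no test. Among the germ cell lists, in the DMRT family 2 of 8 expressed genes had a peak, Dmrtb1 and Dmrt1. The peak of Dmrtb1 (chromosome 4, 107356816 to 107356987) had a score of 161 with the middle 66 bp upstream, and that of Dmrt1 a score of 56.9 at 81 bp upstream, in the lowest of the 5 score groups. Of 18 expressed genes of undifferentiated spermatogonia 0 had a peak (up to 18.5%). Of 21 differentiating spermatogonia genes 5 did, 23.8% (8.22 to 47.2), and the intervals of the lists overlap. The 5 included Dmrtb1, already counted in the DMRT family, and Dazl and Ddx4, which also serve as germ cell markers further on. Sohlh2, a transcription factor gene of differentiating spermatogonia, had the highest score of the 5, 343 at 533 bp upstream. The RNA-binding protein gene Dazl had 99.2 at 48 bp upstream and the helicase gene Ddx4 86.6 at 827 bp inside.

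Meiotic genes had a peak in 8 of 35 cases, 22.9% (10.4 to 40.1). Prdm9, whose protein marks recombination hotspots, had a score of 248 at 47 bp upstream, and Sycp1, the transverse filament gene of the synaptonemal complex, had 169 at 22 bp inside. Mybl1, the A-MYB gene of spermatocytes, had 2 peaks, the higher with 113 at 898 bp inside, and Mei4, needed for meiotic DNA breaks, had 94.4 at 41 bp inside. Among 21 regulators of spermatocytes and spermatids 5 had a peak, led by Rfx3 (282 at 33 bp upstream), a gene of ciliary and spermatid programmes, and with Rfx1 at 70.1 and Nrf1 at 67.4. In the piRNA and germ granule list it was 4 of 22, Tdrd1 (68.4), Tdrd3 (64.5) and Prmt5 (64.1) besides Ddx4. In the retinoic acid list it was 2 of 25, the retinol dehydrogenase gene Rdh10 (215 at 907 bp inside) and the retinoic acid synthesis gene Aldh1a2 (64.4 at 492 bp upstream).

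Splicing and RNA-binding factors had a peak in 23 of 63 cases, 36.5% (24.7 to 49.6), led by Hnrnpa0 (405), Hnrnpr (368), Rbm10 (356) and Sf3b3 (191). Chromatin regulators had one in 23 of 81, 28.4% (18.9 to 39.5), with the methyltransferase gene Mll1 at 579 and the acetyltransferase gene Myst4 at 369 after Myst3 and Brd2. Circadian and stress-response regulators had one in 10 of 29, 34.5% (17.9 to 54.3). After Nfat5 came the nuclear receptor gene Rora (411), Ddit3, an integrated stress response gene (206), and Nfe2l1, a regulator of proteasome genes (164). Ubiquitin genes had one in 13 of 50, 26.0% (14.6 to 40.3), among them Fbxw7 (395), Btrc (194) and Ube2d3 (148).

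The mitotic cell cycle list had a peak in 11 of 52, 21.2% (11.1 to 34.7), led by the kinase gene Cdk2 (547), the phosphatase gene Cdc25a (136), the centromere motor gene Cenpe (98.9) and the centriole kinase gene Plk4 (84.0). The mitochondrial list also had 11 of 52, with Cox7a2 (259), Mrpl2 (247), Mrpl12 (199) and Mrpl1 (109) in front. For chaperones the count was 6 of 35, with Hspa8 (327), Hspe1 (89.4), Hspa9 (74.0) and Hsph1 (65.9). For p53 targets it was 4 of 27, with Sesn2 (207), Trp53inp1 (74.8), Gadd45g (62.5) and Bbc3 (57.3), and for immediate early genes 3 of 24, with Egr4 (148), Egr1 (104) and Atf4 (79.7).

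**Figure D4:**
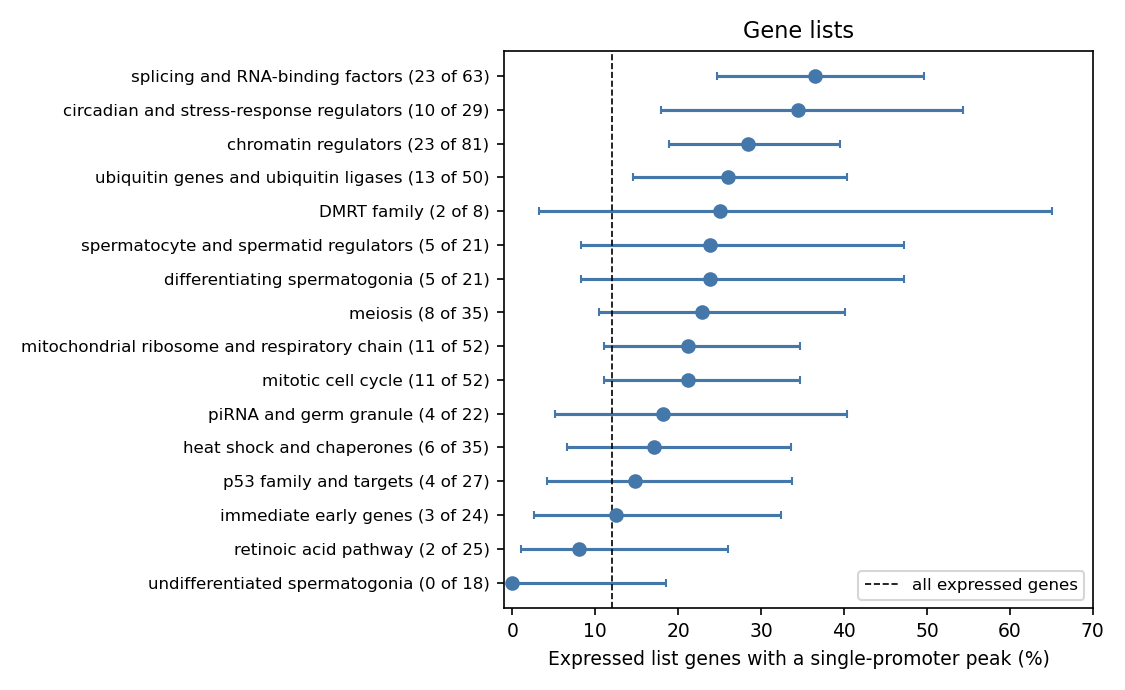
Percent of the expressed genes of each list with a single-promoter peak, with exact 95% binomial intervals; the dashed line is the share among all expressed genes, 12.0%. Splicing factors stand at 36.5% and undifferentiated spermatogonia genes at 0 of 18.

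Genes with a promoter peak tended to be longer and to have more reads than other expressed genes, and whether the list genes differ in these measures was not tested. Their coordinates spanned a median of 24.4 kb, against 18.2 kb for expressed genes with no peak within 1 kb. Their median wild-type level, which the rule used as a threshold and which is not scaled to length, was 5.71 log2 CPM, against 4.55.

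Expression in Dmrt6 null and wild-type P8 testes was then compared at these genes, with limma-trend across all 16634 genes that averaged at least 0 log2 CPM over the 6 libraries. The 6 libraries had 23.8 M to 29.0 M reads in the table, and null replicate 3 stood apart on the main axis of variation, at -54.3, with the other 5 between -1.68 and 20.2. In whole testis, fewer cells of a type and less RNA per cell cannot be told apart. All markers in the table of Sertoli, Leydig, peritubular, endothelial, macrophage, red blood and germ cells averaged 0 log2 CPM or more. The summed macrophage markers ran from 6.56 to 7.03 log2 CPM in null libraries and from 6.74 to 7.38 in wild type, with all 8 lower in null. The summed red blood cell markers ran from 9.49 to 10.29 in null and from 10.53 to 10.79 in wild type, with all 5 lower in null. The summed germ cell markers ran from 10.03 to 10.08 in null and from 9.95 to 10.13 in wild type, with 3 of 6 lower. The summed Sertoli markers ran from 11.28 to 11.72 in null and from 11.51 to 11.57 in wild type, with 8 of 10 higher in null and a median difference of 0.15. The Leydig sum ran from 9.31 to 9.51 in null and from 9.23 to 9.70 in wild type (4 of 7 lower, median -0.19), and the endothelial sum from 7.27 to 7.57 in null and from 7.5 to 7.85 in wild type (4 of 6 lower, median -0.31). The peritubular sum ran from 10.35 to 11.13 in null and from 10.48 to 10.71 in wild type (3 of 5 lower, median -0.04). Of all these markers Dazl, Ddx4, Lhcgr of Leydig cells and Acta2 of peritubular cells had a promoter peak. The part of these cell types in the values that follow was not tested.

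Dmrtb1, the gene named in the null label, had the smallest p among the genes with a promoter peak. Its log2 CPM was -0.88, -0.13 and 0.03 in null replicates 1, 2 and 3, against 3.03, 4.12 and 3.21 in wild-type replicates 1, 2 and 3. These came from 14, 25 and 26 recovered reads in null and 194, 510 and 254 in wild type. The groups did not overlap, and the difference was -3.78 (SE 0.36), with an adjusted p of 0.0516 in limma. Without null replicate 3 the adjusted p was 0.0182, it was 0.0256 with quantile normalization and 0.00678 with median centring, and over all alternatives it ran from 7.74e-05 to 0.289. Dmrt1 had 7.40, 6.98 and 8.04 log2 CPM in null against 7.23, 7.35 and 6.78 in wild type, with overlap between the genotypes.

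Of the 2000 genes 1996 entered the test, and 0 passed the adjusted threshold of 0.05, where 0.00601% of all tested genes did (1 gene). voom on the recovered reads also called 0 of them, and 1 of all 16634 tested genes. At an unadjusted p below 0.05 there were 56 of the 1996 in limma (2.81%), where 3.47% of all tested genes passed. In voom there were 48 (2.4%), where 3.33% of all tested genes passed. Of the 56, 32 were higher in null (1.63% of all tested genes were) and 24 lower (1.85%). With quantile normalization the split was 23 higher and 26 lower, together 2.45% of the 1996, where 3.64% of all tested genes passed. Leaving out wild-type replicate 1, 2 or 3 brought the count of 56 to 18, 36 or 15, or 0.902%, 1.8% and 0.752% of the 1996, where 1.61%, 2.92% and 1.47% of all tested genes passed. Leaving out null replicate 2 brought it to 366 (18.3%), where 15.3% of all tested genes passed. The null and wild-type libraries did not overlap for 224 of the 1996 genes (11.2%), where this held for 11.1% of all tested genes. Of these, 127 were higher in null (6.36%, against 5.06% of all tested genes) and 97 lower (4.86%, against 6.02%).

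Among genes higher in null, the 6 with the smallest p did not pass, each with an adjusted p of 0.755 in limma. Ccno, a cyclin-like gene of multiciliated cells, had 1.90, 2.16 and 2.88 log2 CPM in null replicates 1, 2 and 3, against 1.16, 1.64 and 0.98 in wild type, a difference of 1.05 (SE 0.31). Sesn2, a stress-induced p53 target, had 4.63, 4.15 and 5.57 in null, against 3.63, 4.02 and 3.47 in wild type, a difference of 1.08 (SE 0.34). All 3 null libraries were above all 3 wild-type libraries for both genes, and null replicate 3 was the highest of the 6. Without it the differences were 0.77 for Ccno, 0.68 for Sesn2 and 0.50 for Sik1. Fam167a differed by 1.02 (SE 0.30), Sec1 by 0.71 (SE 0.23), Sik1, a salt-inducible kinase gene, by 0.78 (SE 0.25) and Camk2n1, which encodes an inhibitor of CaM kinase II, by 0.66 (SE 0.21).

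Among genes lower in null, 4 that followed Dmrtb1 by p each had an adjusted p of 0.755 in limma. Nuf2, a kinetochore gene, had 6.01, 5.89 and 5.82 log2 CPM in null replicates 1, 2 and 3, against 6.22, 6.21 and 6.28 in wild type, a difference of -0.33 (SE 0.10). The groups did not overlap, and the difference was small. H2afz, the histone H2A.Z gene, differed by -0.34 (SE 0.11), the mitotic kinase gene Pbk by -0.37 (SE 0.12) and the protease gene Nrd1 by -0.34 (SE 0.11). H2afz has near-identical copies elsewhere in the genome, so its reads are uncertain.

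**Figure D5:**
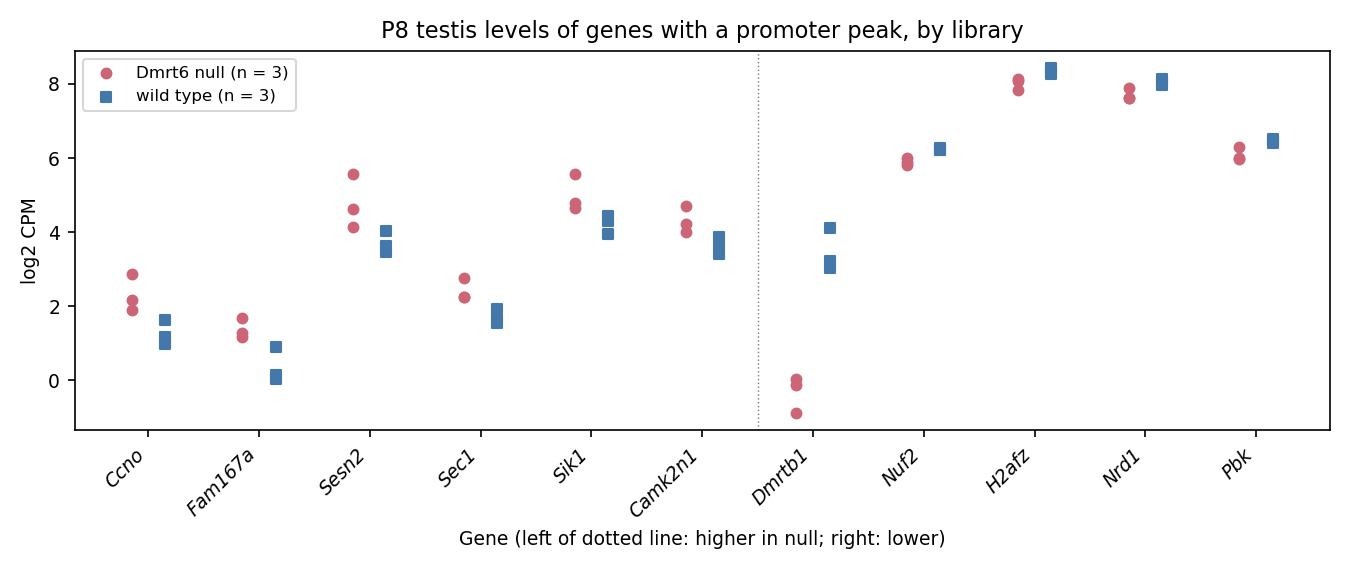
log2 CPM in each P8 library of 11 genes with a promoter peak, 6 higher in null (left of the dotted line) and 5 lower (right). Red circles are Dmrt6 null libraries and blue squares wild-type libraries, 3 each. The genotypes do not overlap for any of the 11, which were picked for small p, and Dmrtb1 has the widest gap.

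The median difference of the genes with a promoter peak was small and varied between the null libraries. It was 0.051 on the log2 scale, with 1202 of 1996 higher in null (60.2%), beside 0.009 and 51.7% for all tested genes and 0.000 and 50.0% for 14183 expressed genes with no peak within 1 kb. With median centring of the libraries the median was 0.004 with 50.9% higher, beside -0.038 and 44.0% for all tested genes. Measured against the wild-type mean, the median was 0.047, 0.001 and 0.074 in null replicates 1, 2 and 3, an SD of 0.037. Without null replicate 3 the median change was 0.026. Set against expressed genes with no peak, the median deviation from each gene's 6-library mean was 0.029, -0.028 and 0.076 in null replicates 1, 2 and 3, against -0.043, -0.002 and -0.028 in wild-type replicates 1, 2 and 3. Null replicate 2 lay within the wild-type range and the other 2 null libraries above it. In the lowest of the 5 score groups the median change was 0.043 and in the highest 0.088, with 0.068, 0.031 and 0.037 between them.

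By list, the bound chromatin regulators had a median change of 0.244, with 21 of 23 higher in null, and 0 passed the test. In null replicates 1, 2 and 3 their median against the wild-type mean was 0.14, -0.00 and 0.72, highest in null replicate 3. The 58 tested chromatin regulators without such a peak had a median of 0.192, with 45 higher. Myst3 had 6.80, 6.67 and 7.47 log2 CPM in null replicates 1, 2 and 3, against 6.66, 6.71 and 6.51 in wild type, and Brd2 had 7.79, 7.62 and 8.51 against 7.54, 7.68 and 7.49. In both genes null replicate 3 was the highest library and the genotypes overlapped.

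The bound mitotic genes had a median of -0.126, with 7 of 11 lower, and the 41 tested ones without such a peak had -0.141, with 28 lower. The bound mitochondrial genes had a median of -0.107, with 9 of 11 lower, beside -0.120 and 35 of 41. The 23 bound splicing and RNA-binding factors stood at 0.062, with 14 higher, beside -0.004 and 20 of 40. Of the 8 bound meiotic genes 7 were lower, with a median of -0.051, and of the 27 others 11 were lower, with a median of 0.025. The bound meiotic median against the wild-type mean was -0.11, -0.01 and -0.11 in null replicates 1, 2 and 3. Among the 7, Sycp1 (-0.004, SE 0.13), Mybl1 (-0.02, SE 0.15) and Mei4 (-0.07, SE 0.19) lay within their SE of 0. Of the bound genes of the other larger lists, 9 of 13 ubiquitin genes were higher in null (median 0.062) and 8 of 10 circadian and stress-response regulators (median 0.058), beside 19 of 37 (0.007) and 14 of 19 (0.125) of those without such a peak. Ddit3 had 4.28, 4.25 and 3.8 log2 CPM in null, against 4.33, 4.29 and 4.59 in wild type, so that it was lower in null with no overlap and an adjusted p of 0.755 in limma. Of the chaperones Hsph1 had 6.42, 6.56 and 6.35 in null, against 5.74, 6.32 and 6.11 in wild type, a difference of 0.39 (SE 0.15) with the same adjusted p in limma. Sohlh2 had 6.15, 6.26 and 6.33 log2 CPM in null, against 5.97, 5.94 and 6.00 in wild type, a difference of 0.28 (SE 0.10), and its adjusted p in limma was 0.755. Its null libraries all lay above its wild-type libraries. In no list did a bound gene pass the adjusted threshold in limma.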

How the data were processed

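RNA was measured in 6 P8 libraries and binding in 1 ChIP and 1 input library. The authors deposited expression as log2 CPM values in 1 table with gene coordinates, and peaks as regions with a score. Per the submitters' processing notes STAR 2.3.0e, Bowtie2, Picard, edgeR and build mm9 were used, with no roles stated. The peak file's name gives MACS and removal of duplicates. How reads were counted, on which annotation and whether by strand is not given in the sources used here. Whole reads were recovered from the steps of the log2 CPM values (100.0% of values came out whole, to within 0.001 read up to 1000 reads and in proportion above).

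Peak coordinates are 1-based in mm9. Changes are null minus wild type from limma-trend (limma 3.58.1, R 4.3.3), fitted on genotype alone, with no pseudocount beyond the authors' own, and Benjamini-Hochberg adjustment over all 16634 genes tested. The same method was also run on simulated counts drawn with equal spread in every library, whereas null replicate 3 stood apart in these data. That run therefore cannot tell how many real changes were missed here. Errors are SE from the limma-trend fit to the real libraries unless given as SD. With 3 libraries a genotype the smallest exact permutation p is 0.1, so that test was not used. The labels call the 3 libraries of a genotype replicates; where they do not come from separate animals, p-values measure only the spread between libraries. Same-numbered libraries did not deviate together (correlations -0.0853, -0.217 and -0.0394), so the numbers were not used as pairs.

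The members, the 16 gene lists and the alternatives were chosen with earlier results of these data known. Genes were named by this rule: Dmrtb1, the 15 of highest score, the 6 of smallest p per direction, the 4 of highest score per list and the members next to each threshold, passing over symbols made of Gm and digits or ending in Rik except at the thresholds. The planned rule for printed promoters gave Dmrtb1 alone, so the core sites and the 3 promoters of highest score were added after the values were seen. Some genes the rule names are not reported here.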

Additional observations from a re-analysis of the deposited data

How the results depend on the processing

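The count of 0 genes with a promoter peak past the threshold became 1 with quantile normalization, median centring, no filter on low values or the replicate block, and 4 with array weights, a fit that did not reach its convergence tolerance. Of all genes tested in these fits, 2, 3, 3 and 2 passed in the same order, and 136 with array weights. The count at genes with a promoter peak stayed at 0 with voom and with a mean of at least 2, where 1 and 0 of all tested genes passed. It ranged from 0 to 1 over fits that left out 1 library, where 0 to 5 of all tested genes passed. Where the count was 1 the gene was Dmrtb1. With array weights Sesn2 also passed (0.86, adjusted p = 0.0396), and 522 of the 1996 genes (26.2%) had an unadjusted p below 0.05, where 28.4% of all tested genes did. With the replicate block, from numbers that do not pair the libraries, 20 did (1.0%), where 2.12% of all tested genes did. The median change was 0.004 with median centring and 0.026 to 0.071 over fits without 1 library. None of the 11 genes named by small p turned its direction in the fits that tested it. Their libraries did not overlap between genotypes, so leaving out 1 library could not turn a direction. They were also picked from these same data, so this is no check on them. Ccno, Fam167a and Dmrtb1 were not tested with a mean of at least 2. The number of peaks was 838 at scores of 100 or more, when the median score was 152.1 and 62.5% were upstream. It ranged from 2185 to 2193 without 1 wild-type library. The median score was 83.3 with a window of 500 bp and 88.3 with one of 2 kb. As TACATTGT the core was in 0.122% of the 820 promoters, against 0.266% of expressed genes with no peak and 0.699% of all promoters. As ACANTGT it was in 3.90%, against 3.91% and 7.59%. With neither form was the share of the 820 above that of expressed genes with no peak. The single ChIP library limits every statement on peaks.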
